A study of Mus musculus with 2 samples.

Results

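The 6 Iroquois homeobox genes of the mouse, Irx1 to Irx6, were followed across the cell groups of a single-cell RNA-seq data set, above all its cartilage cells. They were taken by symbol, 6 of the 56953 genes in the deposited tables, and were chosen by their CPM levels across the cartilage and fibroblast groups of these cells, so the levels are a description and carry no test. The cells were from 2 wildtype mice, both male and of strain C57BL/6J, and the tissue is labelled as olfactory epithelium. Each of the 2 droplet libraries was taken as 1 mouse, since the sample titles number samples and not animals. The labels state no age. Both mice are of 1 group, and the comparisons are between cell groups within the mice.

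Iroquois genes encode homeodomain transcription factors of the TALE type, the class that also holds the Meis, Pbx and Tgif factors. In mammals they sit in a pair of gene clusters: Irx1, Irx2 and Irx4 in one, and Irx3, Irx5 and Irx6 in the other, and neighbours within a cluster often share expression domains in the embryo. They are known for patterning of the neural tube, heart, limb and face. In zebrafish, Iroquois proteins keep chondrocytes at a forming joint in an immature state, and loss of human IRX5 function causes a syndrome with facial changes.

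The RefSeq tables held promoters for 3 of the 6 members: Irx3 on chromosome 8, and Irx2 and Irx4 on chromosome 13. The pair below stands for both gene clusters, since Irx3 was the member that marked cartilage and Irx2 one that was almost lacking there. Each run has 300 bases around the gene's start, 5′ to 3′ on the gene's strand, from build GRCm38.p6. That is not the build of the deposited counts (GRCm39), so the coordinates apply to RefSeq only. Capitals mark matches, on either strand, to the GC box motif GGGCGG or to the CCAAT box. The runs were also searched for TATAAA, the motif of the TATA box. Further motifs searched were, for SOX factors the core motif ACAAAG, and for GLI factors the motif GACCACCCA.
Irx3, chr8:91801605-91801904, minus strand: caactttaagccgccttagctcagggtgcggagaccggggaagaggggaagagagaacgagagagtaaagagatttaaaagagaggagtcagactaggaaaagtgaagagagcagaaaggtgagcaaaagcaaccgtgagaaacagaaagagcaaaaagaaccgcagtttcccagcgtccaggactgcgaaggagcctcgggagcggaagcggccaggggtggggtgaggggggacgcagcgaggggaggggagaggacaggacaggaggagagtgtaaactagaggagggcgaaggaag
Irx2, chr13:72628570-72628869, plus strand: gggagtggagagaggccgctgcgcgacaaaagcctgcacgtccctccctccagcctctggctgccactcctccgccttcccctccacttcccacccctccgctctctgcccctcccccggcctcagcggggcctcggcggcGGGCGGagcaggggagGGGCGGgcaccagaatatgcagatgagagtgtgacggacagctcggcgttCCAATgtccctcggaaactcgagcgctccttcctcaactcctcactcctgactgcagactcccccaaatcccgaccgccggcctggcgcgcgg
The Irx3 run held none of the 5 motifs, had 14 CpG dinucleotides and was 56% G or C. The Irx2 run held 2 GC boxes and 1 CCAAT, with no base shared between matches, had 25 CpG and was 69% G or C. The Irx4 run, which is not printed, also held 2 GC boxes, with 31 CpG and 70.7% G or C. Among all 32851 promoters of this length the medians were 7 CpG and 52.7% G or C, 35.7% held GGGCGG and 37.4% held CCAAT. The other motifs were in 13.6% (TATA box), 18.7% (SOX core) and 0.253% (GLI site) of them. A match describes letters and is not a binding site, and a lack of matches says only that these letters are not in this window.

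After filters, 12537 cells of mouse 1 and 8930 of mouse 2 remained, with 65945481 and 63061420 unique molecular identifiers (UMIs, each counted as 1 captured RNA molecule) and medians of 3884 and 5244.5 UMIs per cell. They formed 25 clusters, built without any Irx gene or any gene of the lists below. The label was checked against olfactory markers: Omp, the marker of mature olfactory neurons, had 15 and 42 UMIs in all cells, Cyp2g1 of sustentacular cells had 6 and 4, and no cluster was named olfactory. By their markers most cells were chondrocyte-like (5054 and 3003 cells, clusters 1, 3, 4, 6 and 11) or fibroblast-like (4593 and 3594 cells, clusters 0, 2, 5, 8 and 10). Of the cells kept, 389 carried a barcode name found in both libraries, and 65 of these lay in the same cluster in both mice (16.7%, against 6.93% from the cluster shares). Values without them are given beside the ratios between classes and the ratio between the Prg4-rich and Ucma-rich clusters. Levels are UMIs summed over the cells of a group and scaled to that group's total (CPM), intervals are 95% and cover counting error only, and ± is the SD over the 2 mice.

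Irx3 was a gene of cartilage cells in both mice. It had 6279 UMIs in mouse 1 and 5638 in mouse 2. The chondrocyte-like cells held 85.9% and 85.5% of them, against 58.8% and 56.9% of all UMIs. In chondrocyte-like cells its level was 139 and 134 CPM (137 ± 3.28, n = 2), and in fibroblast-like cells it was 34.4 and 31.0 CPM (32.7 ± 2.43). The 2 mice did not overlap between the classes. The ratio was 4.04 (3.70 to 4.43) in mouse 1 and 4.34 (3.94 to 4.80) in mouse 2, a mean log2 ratio of 2.07 ± 0.07. It was 2.05 without the shared barcode names.

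Irx5, the neighbour of Irx3 in the genome, was not a marker of cartilage as a whole. Its 1503 and 1538 UMIs were split much as all UMIs were, with 55.0% and 59.5% in chondrocyte-like cells. Its level was 21.3 and 25.5 CPM in chondrocyte-like cells and 27.1 and 23.1 CPM in fibroblast-like cells, ranges that overlapped. The ratio of chondrocyte-like to fibroblast-like cells was 0.786 (0.698 to 0.886) in mouse 1 and 1.11 (0.974 to 1.26) in mouse 2, so the mice lay on opposite sides of 1, and the mean log2 ratio was -0.10 ± 0.35. Without the shared barcode names it was -0.06.

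Counted by cells, a UMI of Irx3 was found in 36.4% and 44.2% of chondrocyte-like cells and in 9.43% and 9.27% of fibroblast-like cells. Chondrocyte-like cells were the deeper class, with medians of 6811 and 11012 UMIs against 2549 and 3234. With each cell thinned to 1000 UMIs the shares were 10.6% and 10.5% against 3.16% and 2.73%, so chondrocyte-like cells were still ahead. In macrophage-like cells, 1 of the classes outside cartilage and fibroblasts, with medians of 3989 and 4342 UMIs, the share for Irx3 was 3.74% and 1.46%. Thinned, it was 1.60% in mouse 1 and 0 of 206 cells in mouse 2, which allows a share of up to 1.46% (3 cells). Other classes were not all this low. In blood endothelial-like cells the thinned share for Irx3 was 6.54% and 3.28%, above that of fibroblast-like cells in both mice. In Schwann-like cells it was 0.562% and 0.909%, but their level of 36.5 and 27.5 CPM overlapped with that of fibroblast-like cells. For Irx5 the shares were 9.32% and 14.0% in chondrocyte-like, 7.12% and 6.37% in fibroblast-like and 1.60% and 0.485% in macrophage-like cells. Thinned, Irx5 was found in 1.94% and 2.16% of chondrocyte-like and 2.37% and 2.00% of fibroblast-like cells.

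Irx3 RNA also lay outside cells. Barcodes of at most 50 UMIs, which measure free RNA, held Irx3 at 87.9 and 83.5 CPM and Irx5 at 21.8 and 17.4 CPM. Col2a1, the main collagen of cartilage, served as the yardstick for cartilage RNA in other cells. There were 2.50 and 2.40 UMIs of Irx3 for every 100 of Col2a1 in chondrocyte-like cells. In fibroblast-like cells there were 19.0 and 31.2, and in tenocyte-like cells (tendon cells, by Tnmd and Thbs4) 26.8 and 43.0. Cartilage clusters varied in this ratio, from 1.05 and 0.467 in cluster 11 to 8.19 and 5.68 in the Prg4-rich cluster 3. The fibroblast-like clusters lay above that range in both mice, the nearest being cluster 2 at 11.6 and 28.3 and cluster 0 at 12.5 and 13.3. At the finer resolution the ratio reached 10.0 and 8.27 in cartilage. Some fibroblast-like clusters lay below that, at 9.09 (2 UMIs of Irx3), 7.37 and 5.90 in mouse 1 and at 7.63 in mouse 2. In macrophage-like cells it was 5.61 and 1.97, inside the cartilage range, with 12 and 6 UMIs of Irx3 in all. Schwann-like cells were at 2.42 and 15.7, on 18 and 13 UMIs of Irx3. Blood endothelial-like cells were at 2.06 and 7.69, on 54 and 8 UMIs. In mouse 2 both thus lay above the main cartilage clusters, and in mouse 1 inside their range. The ratio in free RNA was not measured, and the part of free RNA in these values was not tested.

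**Figure D1:**
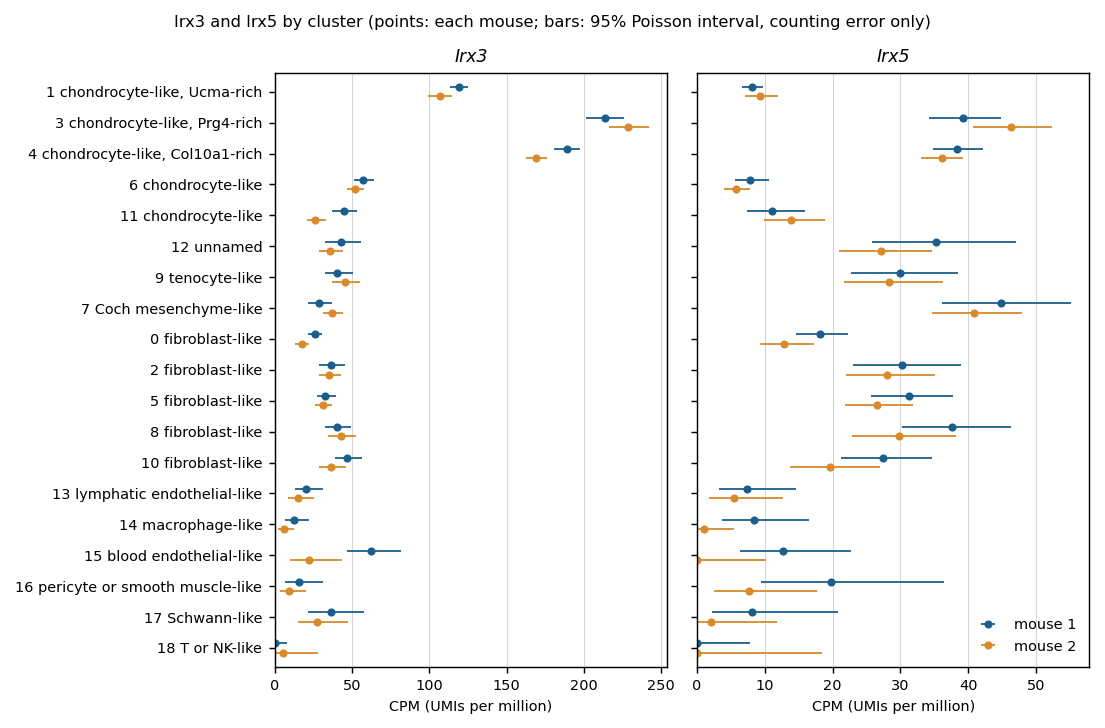
Levels of Irx3 (left) and Irx5 (right) in CPM, on linear axes, for each cluster named on the vertical axis. Points are the 2 mice and bars 95% Poisson intervals, which cover counting error only. Irx3 is highest in chondrocyte-like clusters 3 and 4, followed by 1, while Irx5 is high in 3 and 4 and low in 1 and 6.

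Cartilage clusters differed among themselves in Irx3 by at least as much as cartilage differed from fibroblasts. Of them, 3 are called by a gene that was high in them. Cluster 3 is Prg4-rich (2321 and 2067 CPM of Prg4, the lubricin of cartilage surfaces). Cluster 4 is Col10a1-rich (788 and 758 CPM of Col10a1, the collagen of hypertrophic cartilage). Cluster 1 was picked as the highest in Col2a1 (9589 and 11356 CPM). It is called Ucma-rich (1153 and 1576 CPM of Ucma, a secreted cartilage protein). Prg4 was also present in the Ucma-rich cluster, at 1361 and 1052 CPM, so the names are of degree. Clusters 6 and 11 led with Ucma, Ibsp, Clu and Gpha2. Their Ucma overlapped with that of cluster 1, at 982 and 1369 CPM and at 1018 and 1305 CPM. The marker list closest to clusters 6 and 11 was that of Ucma chondrocytes, while for cluster 1 it was the general chondrocyte list. Ucma thus does not set cluster 1 apart from them. These names rest on expression in dissociated cells, and position in the tissue was not measured.

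Irx3 was highest in the Prg4-rich cluster, at 213 and 229 CPM (221 ± 10.9). It was 189 and 169 CPM in the Col10a1-rich cluster and 119 and 107 CPM in the Ucma-rich cluster. The mice did not overlap between neighbours in this order. Cluster 6 followed at 57.2 and 51.9 CPM and cluster 11 at 44.4 and 26.2 CPM. Cluster 11 overlapped with the fibroblast-like class: its Irx3 was 1.29-fold that of fibroblast-like cells in mouse 1 and 0.847-fold in mouse 2. The unnamed cluster 12, led by Angptl7 and Clu, had 43.0 and 35.6 CPM, the tenocyte-like cluster 9 had 40.5 and 45.2 CPM, and both overlapped with cluster 11.

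Irx5 took a different order. It was 39.2 and 46.3 CPM in the Prg4-rich cluster and 38.3 and 36.1 CPM in the Col10a1-rich cluster. In the Ucma-rich cluster it was 8.04 and 9.28 CPM, in cluster 6 it was 7.81 and 5.66 CPM, and in cluster 11 it was 11.1 and 13.8 CPM. Cartilage thus fell into an Irx5-high pair (3 and 4) and an Irx5-low group (1, 6 and 11), whose values did not overlap. The low group was below the fibroblast-like class in both mice, at 0.296 and 0.402 times its level in cluster 1 and 0.288 and 0.245 times in cluster 6. The high pair was above it, 1.45-fold and 2.00-fold in cluster 3 and 1.41-fold and 1.56-fold in cluster 4. These contrasts are with the fibroblast-like class as a whole, and single clusters overlapped. Cluster 11 overlapped with fibroblast-like cluster 0 (18.1 and 12.9 CPM), and cluster 4 with fibroblast-like cluster 8 (37.6 and 29.8 CPM).

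From the Ucma-rich to the Prg4-rich cluster, Irx3 was 1.79-fold (1.66 to 1.93) and 2.15-fold (1.95 to 2.36) higher, a mean log2 ratio of 0.97 ± 0.18. Irx5 was 4.88-fold (3.87 to 6.17) and 4.98-fold (3.75 to 6.72) higher, a mean log2 ratio of 2.30 ± 0.02. The step was larger for Irx5 than for Irx3 in both mice. Without the shared barcode names the log2 ratios were 0.98 and 2.31. The size of the step changed with other settings. With cells of at least 500 UMIs the log2 ratios were 0.22 for Irx3 and 0.61 for Irx5, and with finer clusters (resolution 2) they were 1.54 and 3.78. In both settings the Prg4-highest cluster overlapped little with the one described here. No setting that gave a value turned the direction of the mean.

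**Figure D2:**
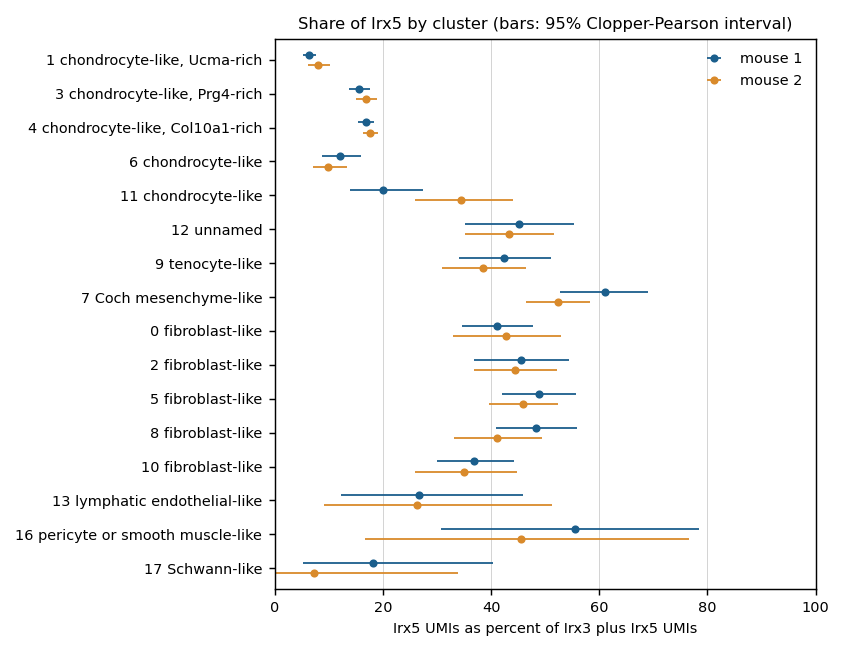
Irx5 UMIs as a percent of Irx3 plus Irx5 UMIs (horizontal axis, 0 to 100) for each cluster with at least 10 such UMIs in each mouse. Points are the 2 mice and bars 95% Clopper-Pearson intervals. Chondrocyte-like clusters 1, 3, 4 and 6 lie at the left, and the Ucma-rich cluster is the lowest of the chondrocyte-like ones.

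The balance of the pair set chondrocyte-like clusters 1, 3, 4 and 6 apart from the fibroblast-like clusters. Irx5 made up 13.3% (12.5 to 14.2, Clopper-Pearson) of the Irx3 plus Irx5 UMIs of chondrocyte-like cells in mouse 1 and 15.9% (15.0 to 16.9) in mouse 2. In fibroblast-like cells it made up 44.1% (40.9 to 47.3) and 42.7% (39.2 to 46.3). Among cartilage clusters the Ucma-rich one was lowest, at 6.32% and 8.01%, and the Prg4-rich and Col10a1-rich clusters overlapped in their intervals, at 15.5% and 16.8% and at 16.9% and 17.6%. Cluster 11 was the highest in cartilage, at 20% and 34.5%, and in mouse 2 its interval (25.8 to 44.0) held the values of fibroblast-like cluster 10 (36.9% and 34.9%). The Coch mesenchyme-like cluster 7, led by Igfbp2, Mfap4 and Cilp, was the highest of the clusters shown, at 61.1% and 52.4%. Cluster 12 was at 45.1% and 43.2%, in the range of the fibroblasts. Shares are compared between cell groups only: the files do not put the levels of both genes on a scale per length.

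The pair was also followed within single cells. In chondrocyte-like cells thinned to 4000 UMIs (3710 and 2778 cells), Irx5 was found in 13.1% and 13.0% of cells with Irx3 and in 3.44% and 4.62% of cells without. Within the Prg4-rich cluster it was 18.6% against 7.27% in mouse 1 and 20.9% against 7.19% in mouse 2. Within the Ucma-rich cluster the gap was 5.84% against 1.45% and 3.28% against 2.27%. In fibroblast-like cells it was 11.4% against 7.80% and 8.44% against 7.20%. The share was higher in cells with Irx3 in both mice in these groups and in each of the 5 chondrocyte-like clusters. Some of these rest on few cells. In cluster 11, Irx5 was found in 2 of 31 and 1 of 20 cells with Irx3. In mouse 2 it was found in 4 of 122 such cells in the Ucma-rich cluster and in 4 of 83 in cluster 6. The share was not higher in every group: in fibroblast-like cluster 10 it was 7.69% (3 of 39 cells) against 9.73% and 0% (0 of 22) against 5.21%. In cluster 7, cluster 2 and the tenocyte-like cluster 9 the mice went opposite ways. Cells of 1 mouse are not replicates, and no test was made.

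**Figure D3:**
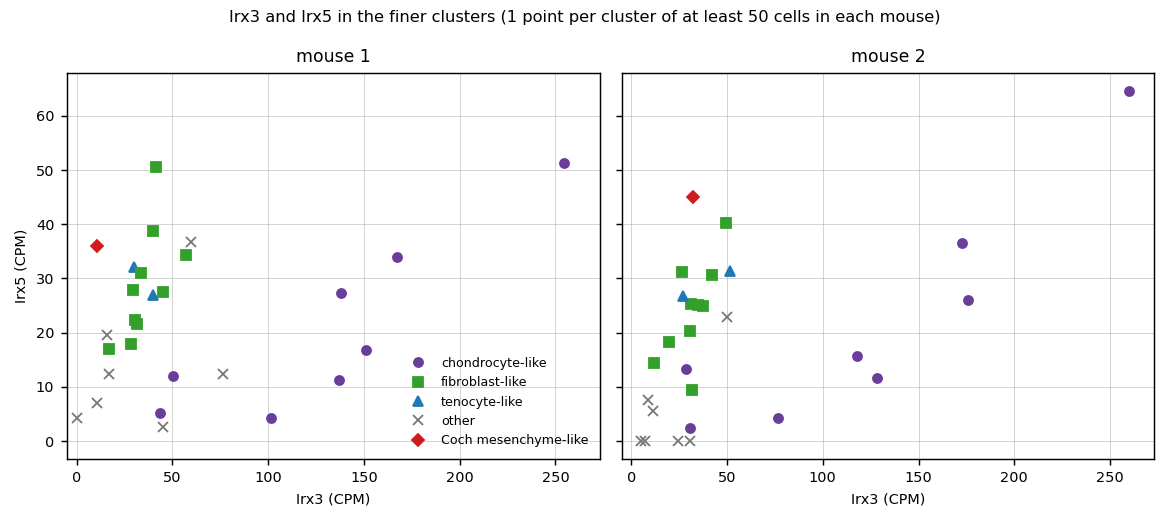
Irx3 (horizontal axis, CPM) against Irx5 (vertical axis, CPM) for finer clusters of at least 50 cells in each mouse, with mouse 1 in the left panel and mouse 2 in the right. Symbols give the class. Chondrocyte-like clusters spread along both axes, while most of the other clusters lie at the low end of Irx3.

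Finer clusters spread the levels of both genes further. The highest Irx3 was in a cluster led by Wif1, Cytl1, Nos2 and Prg4 (833 and 380 cells), at 255 and 260 CPM, and its Irx5 was 51.4 and 64.6 CPM. A second Prg4 cluster, led by Clu and Ank, had 138 and 176 CPM of Irx3 and 27.3 and 26.0 CPM of Irx5. The Col10a1-led cluster had 167 and 173 CPM of Irx3 and 34.0 and 36.6 CPM of Irx5, and overlapped with the second Prg4 cluster in Irx3. The cluster led by Col2a1 and Ibsp (989 and 258 cells) had 101 and 76.7 CPM of Irx3 and 4.17 and 4.19 CPM of Irx5. Irx5 there made up 3.95% and 5.18% of the pair's UMIs. The finer cluster that overlapped most with the Prg4-rich cluster was led by Col2a1, Acan and Sfn (653 and 236 cells). It had 151 and 128 CPM of Irx3 and low Irx5, at 16.7 and 11.6 CPM, or 9.96% and 8.28% of the pair's UMIs. A cluster led by Slpi and Clu, with 50.3 and 28.5 CPM of Irx3, was again near the fibroblasts.

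Irx1 and Irx2, the neighbours on chromosome 13, had the opposite layout and were rare in cartilage. Irx1 had 135 and 95 UMIs in all cells, and Irx2 had 103 and 66. In chondrocyte-like cells each had 4 UMIs in each mouse, which is 0.103 and 0.112 CPM. In fibroblast-like cells Irx1 had 105 and 66 UMIs (6.83 and 4.60 CPM) and Irx2 had 82 and 36 (5.33 and 2.51 CPM). Irx1 was thus 66.2-fold (25.1 to 247) and 41.3-fold (15.4 to 156) higher in fibroblast-like cells, a mean log2 ratio of chondrocyte-like to fibroblast-like cells of -5.71 ± 0.48. Irx2 was 51.7-fold (19.4 to 194) and 22.5-fold (8.07 to 87.0) higher, a mean log2 ratio of -5.09 ± 0.85. Without the shared barcode names the log2 ratios were -5.84 and -4.99. Without the mitochondrial and doublet filters they were -4.22 and -4.21, so these ratios moved by over 1.5 times. The cause of this move was not tested.

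**Figure D4:**
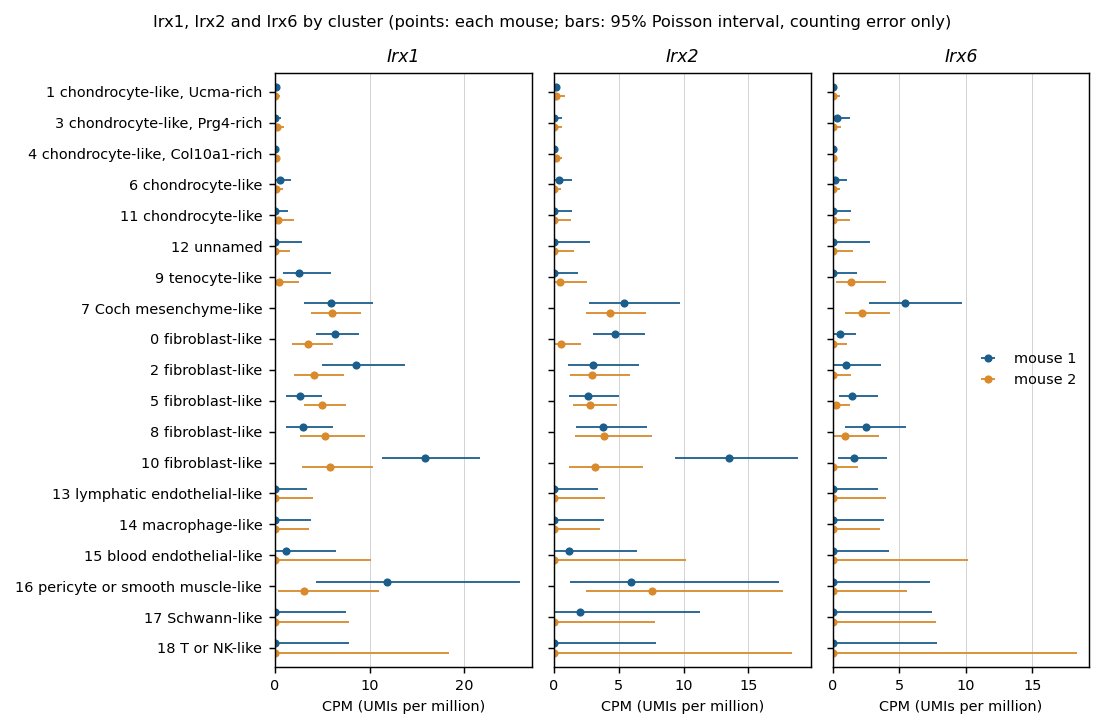
Levels of Irx1, Irx2 and Irx6 in CPM, on linear axes that differ in range, for each cluster named on the vertical axis. Points are the 2 mice and bars 95% Poisson intervals. The chondrocyte-like clusters lie near 0 for Irx1 and Irx2. The fibroblast-like clusters, the Coch mesenchyme-like cluster 7 and the pericyte or smooth muscle-like cluster 16 lie to the right with wide intervals. The smaller Coch mesenchyme-like cluster 19 is not drawn.

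Among fibroblast-like clusters, Irx1 was highest in cluster 10 in both mice, at 15.9 and 5.81 CPM. Cluster 2 had 8.56 and 4.11 CPM, cluster 0 had 6.29 and 3.51 CPM, cluster 8 had 2.96 and 5.29 CPM and cluster 5 had 2.63 and 4.92 CPM. The range of cluster 10 overlapped with those of clusters 0 and 2 and lay above those of clusters 5 and 8. Clusters 0, 2, 5 and 8 overlapped with each other. In mouse 2 the counting interval of cluster 10 (2.90 to 10.4 CPM) held the values of the other 4. For Irx2, cluster 10 had 13.5 and 3.17 CPM and cluster 0 had 4.72 and 0.58 CPM (24 and 2 UMIs), so the mice differed widely in both. Clusters 2, 5 and 8 lay between 2.63 and 3.85 CPM. The tenocyte-like cluster 9 had little Irx1, at 2.53 and 0.46 CPM. Irx1 and Irx2 were not particular to fibroblasts. Pericyte or smooth muscle-like cells had 11.9 and 3.03 CPM of Irx1 (6 and 2 UMIs) and 5.93 and 7.58 CPM of Irx2 (3 and 5 UMIs). Keratin epithelium-like cells had 7.34 and 0 CPM of Irx1 (2 and 0 UMIs) and 3.67 and 11.3 CPM of Irx2 (1 and 4 UMIs).

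The Coch mesenchyme-like cluster 7 carried members of both gene clusters. It had 5.92 and 6.00 CPM of Irx1, 5.43 and 4.36 CPM of Irx2, 44.9 and 40.9 CPM of Irx5, and 28.6 and 37.1 CPM of Irx3. Its Irx5 was 1.66-fold and 1.77-fold that of the fibroblast-like class, and overlapped with that of the Prg4-rich cartilage. At the finer resolution a Coch mesenchyme-like cluster was led by Coch, Igfbp2, Igfbp3 and Dkk2 (197 and 184 cells) and had 15.9 and 20.2 CPM of Irx1 and 23.3 and 14.7 CPM of Irx2. These rest on 15 and 22 UMIs of Irx1 and 22 and 16 of Irx2. Irx5 there was 36.0 and 45.0 CPM. A fibroblast-like finer cluster led by Mfap4 and Aldh3a1 had like Irx5, 50.5 and 40.3 CPM, with 1.28 and 2.14 CPM of Irx1. Of its 814 cells, 75.7% lay in cluster 7, as did 76.9% of the 381 cells of the Coch-led one. Cluster 7 is thus a mixture that drew more cells from the fibroblast-like one, and its name does not hold for all its cells. Its contrasts with the fibroblast-like class are in part between fibroblast-like cells.

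Irx1 and Irx2 were likewise counted within the same fibroblast-like cells. A UMI of Irx2 was seen in 14 of 88 cells with Irx1 in mouse 1 (15.9%) and in 3 of 49 in mouse 2 (6.12%). Among cells without Irx1 the shares were 0.954% and 0.790%. Cells with Irx1 were deeper, with medians of 3997 and 4611 UMIs against 2541 and 3210, and the part of depth in this was not tested.

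Irx4 and Irx6 were near the limit of detection. Irx4, known from the ventricles of the heart, had 12 and 14 UMIs in all. Of these, 9 and 13 lay in fibroblast-like cells and 1 and 0 in chondrocyte-like cells. In mouse 1 the fibroblast-like level was 22.7-fold higher (3.14 to 994), and in mouse 2 it was at least 10.8-fold higher, against a floor of 3 UMIs for the class. With the counting error of both classes included, the lower 95% limit in mouse 2 was 7.62-fold. Irx6 had 34 and 14 UMIs, of which fibroblast-like cells held 20 and 3 and the Coch mesenchyme-like class 11 and 8. Chondrocyte-like cells had 3 and 0 of them. In cluster 7 Irx6 was 5.43 and 2.18 CPM, 4.17-fold (1.81 to 9.14) and 10.4-fold (2.50 to 61.0) the fibroblast-like level. The intervals are wide, but both mice had Irx6 higher there.

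Irx3 lies between Fto and Irx5, and an antisense gene, Irx3os, overlaps it on the other strand. Irx3os had 236 and 187 UMIs. It was 5.58 and 6.71 CPM in the Prg4-rich, 7.61 and 4.06 CPM in the Col10a1-rich, 3.42 and 2.48 CPM in the Ucma-rich and 2.29 and 1.22 CPM in cluster 6. Like Irx3, it was higher in clusters 3 and 4 than in 1 and 6 in both mice. Cluster 11 had 1.53 and 3.19 CPM of Irx3os (4 and 9 UMIs), and in mouse 2 it lay above clusters 1 and 6, unlike for Irx3. Between the classes Irx3os was 4.64 and 3.60 CPM in chondrocyte-like and 2.21 and 2.72 CPM in fibroblast-like cells. The sources used here do not state whether counting used strand. Whether reads from the stretch that both genes share were told apart is therefore not known. The same holds for Irx6 and Gm45505, which overlap on opposite strands.

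**Figure D5:**
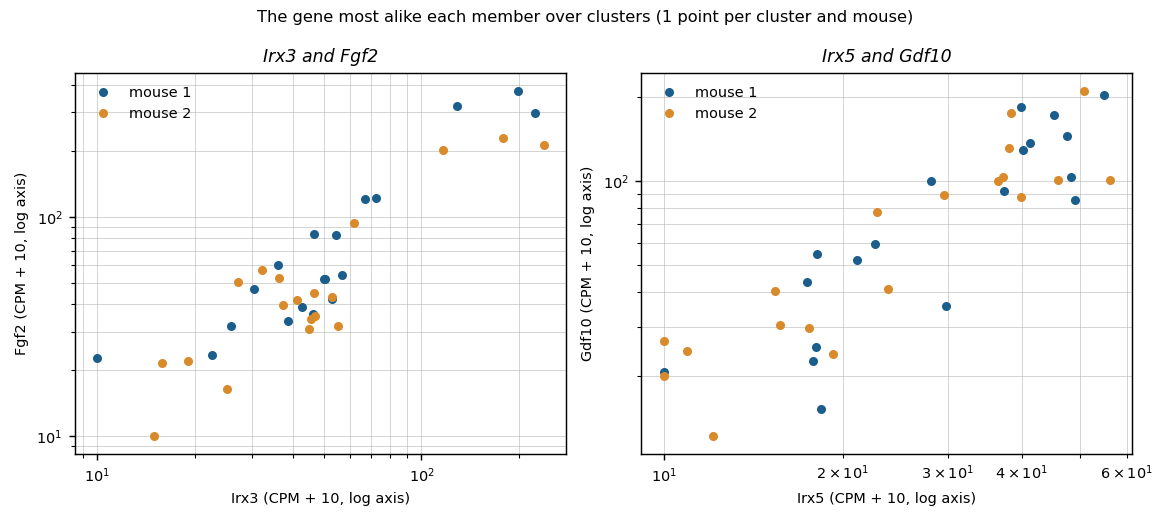
Each member with the gene most alike it: Irx3 and Fgf2 (left), Irx5 and Gdf10 (right). Axes are CPM plus 10 on log scales, and each point is 1 of 19 clusters in 1 mouse. Fgf2 climbs with Irx3 to its highest points in cartilage, and Gdf10 climbs with Irx5 in both mice.

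The genes whose levels ran most like a member were sought over 19 clusters of at least 50 cells in each mouse, by the lower of the Pearson correlations in both mice of log2(CPM + 10). For Irx3 these were Fgf2, a growth factor (0.909 and 0.897), Adgra3 (0.892 and 0.881), Cdo1, which breaks down cysteine (0.865 in both), Acvr1, a BMP receptor (0.892 and 0.864), and 1810055G02Rik (0.874 and 0.862). For Irx5 they were Gdf10, a BMP-family ligand (0.864 and 0.905), Col6a2 and Col6a1, chains of collagen VI (0.850 and 0.840, and 0.830 and 0.823), Maob (0.851 and 0.821), and Pax3, a craniofacial transcription factor (0.859 and 0.816). Neither member was among the genes most like the other: the correlation of Irx3 with Irx5 was 0.469 and 0.651. Irx5 ran with Irx6 at 0.537 and 0.463, and Irx3 with Irx1 at -0.20 and -0.10. The clusters share their libraries, so these values are a description. Adgra3, 1810055G02Rik and Col6a2 were among the genes open to the clustering.

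Gdf10 and Fgf2 show how the 2 members part within cartilage. Gdf10 was 75.9 and 91.1 CPM in the Prg4-rich, 93.8 and 90.8 CPM in the Col10a1-rich and 15.4 and 13.9 CPM in the Ucma-rich cluster, the layout of Irx5. Fgf2 was 286 and 201 CPM in the Prg4-rich, 366 and 218 CPM in the Col10a1-rich and 308 and 191 CPM in the Ucma-rich cluster, but 111 and 83.7 CPM in cluster 6 and 72.7 and 42.5 CPM in cluster 11. It was thus high in the same 3 clusters as Irx3.

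Genes around the members were compared between the classes in edgeR by a quasi-likelihood test on summed counts, blocked by mouse. P-values were adjusted by Benjamini-Hochberg over 6854 genes kept out of the clustering. Of these, 12.2% were higher in chondrocyte-like cells and 12.1% lower, with a median log2 change of -0.04. Irx3 and Irx5 passed the filter on low counts of this fit and the other 4 members did not. Their fitted changes are not used as tests. The clusters were drawn on the same cells, which bears on all of these calls.

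Of 8 neighbours of the Irx loci, 6 were tested, and none rose and 2 fell in chondrocyte-like cells. Fto, beside Irx3, had 111 and 90.5 CPM in chondrocyte-like and 101 and 89.1 CPM in fibroblast-like cells, with an edgeR adjusted p of 0.706. Crnde, a long noncoding RNA beside Irx5, had 7.97 and 7.92 against 10.3 and 9.34 CPM (adjusted p = 0.857). Mmp2, a gelatinase gene beside Irx6, fell from 941 and 998 CPM in fibroblast-like to 103 and 99.0 CPM in chondrocyte-like cells, a log2 change of -3.13 (edgeR adjusted p = 0.00225). Lpcat2, a further gene of the region, fell by 1.44 on the log2 scale, a call that was lost without the block and with DESeq2. The median of the 6 was -0.37.

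Of the 12 TALE partners, with which Iroquois proteins share their type of homeodomain, 2 rose and 4 fell, and their median was -0.09. Meis1 fell from 10.8 and 10.1 CPM in fibroblast-like to 0.748 and 0.809 CPM in chondrocyte-like cells, a log2 change of -3.55 (SE 0.54, edgeR adjusted p = 9.5e-06). Meis2 fell by 3.47 and Meis3 by 2.15 on the log2 scale. The repressor Tgif1 rose from 102 and 70.8 to 270 and 249 CPM (log2 change 1.82, edgeR adjusted p = 0.0213), a call lost without the block. The low Meis genes in cartilage shared their direction with Irx1 and Irx2, not with Irx3.

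Skeletal transcription factors were the list with the largest median, 2.47 over 12 tested of 19, with 7 higher and 0 lower. Sox6, a cartilage factor, was higher by 4.93 on the log2 scale, Barx2 by 3.99, and Foxc2 and Foxc1 by 3.95 and 3.25. In the FGF list 6 of 11 tested were higher and 3 lower (median 1.17): Fgfr3, the receptor that restrains growth-plate cartilage, had 135 and 180 CPM in chondrocyte-like against 7.41 and 5.93 CPM in fibroblast-like cells, and Fgf10 and Fgf7 were lower by 5.69 and 4.52. In the BMP and GDF list 6 of 14 were higher and 2 lower (median 0.18), with Bmpr1b higher by 3.77 and Bmp4 lower by 3.23. Wnt genes gave 6 higher and 3 lower of 18 (median -0.40), with Wif1 and Fzd9 higher by 5.32 and 5.27 and Sfrp2 lower by 4.27.

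Retinoic acid genes gave 3 higher and 6 lower of 11 tested (median -1.08). The lower ones included Crabp1 (-4.75) and the synthesis enzymes Aldh1a1 (-4.32), Aldh1a2 (-3.27) and Aldh1a3 (-2.05), all log2 changes. In the hedgehog and PTHrP list none was higher and 4 of 11 were lower (median -0.58), led by Gli1 (-3.64), a hedgehog target. Of these 4, Gas1 (adjusted p = 0.116) and Cdon (0.0532) were not past the threshold in edgeR without the block. Of 3 genes linked to IRX5 in the face, Cxcl12 fell from 447 and 254 to 10.0 and 5.91 CPM (log2 change -5.29, edgeR adjusted p = 5.22e-06). Trps1 had 537 and 434 CPM in chondrocyte-like against 238 and 173 CPM in fibroblast-like cells and missed the threshold (adjusted p = 0.115), as did Gata3.

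Within cartilage, each cluster was set against the mean of the other chondrocyte-like clusters over 9822 genes, and levels of the others are given here over their summed cells. These comparisons share clusters and are not independent. Crnde, beside Irx5, was the one neighbour called in the Irx5-high clusters. In the Prg4-rich cluster, where 1.15% of all genes tested were higher and 0.57% lower (113 and 56 genes, but 104 and 167 with DESeq2), Crnde had 13.5 and 8.71 CPM against 5.99 and 6.36 CPM, a log2 change of 1.17 (SE 0.30, edgeR adjusted p = 0.0276, and 0.169 without the block). In the Col10a1-rich cluster, with 6.91% higher and 4.37% lower (679 and 429 genes, but 566 and 763 with DESeq2), it had 14.3 and 12.0 against 5.78 and 5.53 CPM, a log2 change of 1.68 (SE 0.28, edgeR adjusted p = 1.34e-05). In cluster 6, with 1.68% higher and 1.22% lower, it had 2.86 and 1.99 against 8.64 and 8.04 CPM, a log2 change of -1.63 (edgeR adjusted p = 0.0102, and 0.0627 without the block). In the other Irx5-low clusters Crnde was not called: it had 3.70 and 4.33 CPM in cluster 1 (edgeR adjusted p = 0.585) and 3.06 and 7.09 CPM in cluster 11 (edgeR adjusted p = 0.145).

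Gdf10 was called in the direction of Irx5 in clusters 1, 3, 4 and 6. It rose in the Prg4-rich cluster by 1.53 on the log2 scale (edgeR adjusted p = 0.00297) and in the Col10a1-rich cluster by 1.89. It fell by 1.43 in the Ucma-rich cluster (edgeR adjusted p = 0.0186), where 2.3% of genes were higher and 1.02% lower (226 and 100 genes, but 154 and 235 with DESeq2), and by 1.42 in cluster 6. Since Gdf10 was picked for likeness to Irx5 over clusters that include these, its calls are a description of that layout.

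In the Prg4-rich cluster, Pax1, a factor of the sclerotome, had 10.1 and 13.2 CPM against 3.87 and 2.95 CPM (log2 change 2.12, edgeR adjusted p = 9.07e-05), and it fell in cluster 6 by 2.42. Bmp2 in the Prg4-rich cluster had 832 and 793 against 394 and 319 CPM (log2 change 1.32), Bmp4 rose by 0.94 and the BMP antagonist Chrdl1 fell by 1.57. Wnt11 rose there by 1.29 and Wnt5a by 0.90, and Wnt5b fell by 0.96. Of the 12 genes named by rule for this cluster, 10 were not past the threshold without the block. Pax1 and Wnt11 were.

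In the Col10a1-rich cluster, Fgfr3 had 266 and 314 CPM against 81.1 and 92.8 CPM (log2 change 1.99, edgeR adjusted p = 3.64e-11) and Nog, a BMP antagonist, rose by 2.11. Bmp7 fell by 3.08, the hedgehog antagonist Hhip by 3.59 and the retinoic acid degrading enzyme Cyp26a1 by 4.48. Cluster 11, where Irx3 was lowest in cartilage, had 18.3% of genes higher and 14.9% lower. These were 1793 and 1467 genes, against 2687 and 769 with DESeq2 and 2524 and 1112 of 20376 tested with no filter on low counts. There Fgf2 fell by 2.35, and Pbx4, a TALE partner, had 55.9 and 38.6 against 5.30 and 1.69 CPM (log2 change 3.39). In the Ucma-rich cluster, with high Irx3 and low Irx5, Fgf18 rose by 1.21 and Fgf2 by 1.06. Fgf2 was also picked for likeness to Irx3 over clusters that include these, so its calls are a description of that layout.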

How the data were processed

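Single-cell libraries of 2 mice were used. The authors deposited counts per gene and barcode without normalization. They were taken as UMI counts. Cell Ranger 7.0.0, STAR without a version and GRCm39 are named per the submitters' processing notes, without role or order. Barcodes with at least 1000 UMIs and 300 genes and at most 15% mitochondrial UMIs were kept. Scrublet called no doublets, so the highest doublet scores were removed at 0.8% per 1000 cells. Clustering (Python 3.11.15, scanpy 1.11.5, numpy 2.4.6, scikit-learn 1.9.0, leidenalg 0.10.2) used 27260 genes, of which 2000 variable ones, 30 principal components, 15 neighbours and resolution 1 (2 for finer clusters). The other 29693 genes, with all Irx and list genes, were kept out. Clusters were named from 27 marker lists, by a score of at least 1.5, a lead of 0.25 and 3 markers in 10% of cells. Intervals used scipy 1.17.1.

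Counts summed per mouse and class or cluster of at least 20 cells per mouse were tested with edgeR 4.0.16 (R 4.3.3), two-sided, at an adjusted p of 0.05, with DESeq2 1.42.0 as an alternative. The mouse was a block because all groups of 1 number come from 1 library, which was taken as 1 animal. Scripts were tested on simulated data. Named genes were the members, up to 4 called genes per list and comparison with the largest change, cluster markers, and the 5 genes most like each member with at least 100 UMIs in each mouse (Irx3 and Irx5), among genes reaching 20 CPM in a cluster. Fto, Crnde, Trps1 and Gata3 in the class comparison were named after their values were seen. The members and lists were chosen with earlier results of these data known.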

Additional observations from a re-analysis of the deposited data

How the results depend on the processing

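The log2 ratio of chondrocyte-like to fibroblast-like cells stayed between 2.00 and 2.12 for Irx3 over all alternatives. Left-out mice gave 2.02 to 2.12 for Irx3, -0.35 to 0.14 for Irx5, -6.05 to -5.37 for Irx1 and -5.69 to -4.49 for Irx2. Without the mitochondrial and doublet filters Irx1 was -4.22 and Irx2 -4.21. For the Prg4-rich to Ucma-rich ratio, Irx3 (0.97) and Irx5 (2.30) became 0.22 and 0.61 with 500 UMIs, 1.16 and 2.36 without the mitochondrial and doublet filters, 1.54 and 3.78 at resolution 2, and 0.66 and 1.73 with the finer clusters most similar to the main ones. Irx5 was 2.19 with 2000 UMIs and 1.98 as a mean over cells. At resolution 0.5 both fell in 1 cluster and gave no value. The cause was not tested. These zone alternatives were chosen after seeing the data.

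Genes past the threshold between the classes numbered 1663 of 6854 tested. They were 2681 of 20354 with no filter on low counts and 5743 of 11241 with only the 2 classes in the fit. Without the replicate block they were 1197 between the classes. In clusters 1, 3, 4 and 6 they fell from 326 to 48, from 169 to 17, from 1108 to 556 and from 285 to 68 without the replicate block, and cluster 11 had 3260 and 2393. Cluster 3 had 271 of 9822 tested with DESeq2 and 264 of 20376 with no filter on low counts. No named gene changed direction. Without the block, genes named by rule that were not past the threshold were 4 of 31 between the classes, and 7 of 8, 10 of 12, 10 of 26, 9 of 15 and 4 of 30 in clusters 1, 3, 4, 6 and 11. With 2 mice, an SD has little precision, and levels of Irx1, Irx2, Irx4 and Irx6 in cartilage rest on at most 4 UMIs per mouse.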
